A study of Homo sapiens with 32 samples.

Results

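The transcripts of 10 genes that belong to the epithelial-mesenchymal transition (EMT) were followed in human granulosa cells grown for weeks with perfluorooctane sulfonate (PFOS), a persistent fluorinated surfactant. They were chosen by gene symbol: the Snail factors SNAI1 and SNAI2, the Twist factors TWIST1 and TWIST2, the ZEB factors ZEB1 and ZEB2, the cadherins CDH1, CDH2 and CDH11, and the intermediate filament gene VIM. All 10 were found among the 18583 genes with values in the deposited tables, which list 47137 gene entries. The choice was by symbol and used no measured value as a criterion, but earlier results of these data were known when it was made.

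The cells were HGrC1, an immortalized line of non-luteinized human granulosa cells, the somatic cells that surround the oocyte. From each of 4 separately thawed vials of this line came a control culture that received the vehicle alone (0.05% DMSO) and 3 cultures with PFOS, at 0.01 µM, 0.1 µM and 1 µM, and RNA was taken after 6 and after 12 weeks, which gave 32 libraries in 8 groups of n = 4. All groups, the controls included, shared a medium with 10% fetal bovine serum and, per the labels, 100 nM estradiol (the study's methods name 100 nM testosterone instead), and PFOS was added again at each passage. The replicates are vials of a single line and not donors. The main fits held no term for the vial, so p-values describe the spread between replicate libraries of this line.

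EMT is the programme by which cells give up epithelial junctions and take on the motile form of mesenchymal cells. Its core is a set of transcription factors: the Snail and ZEB families are zinc finger repressors that bind E-boxes, short DNA elements of the form CANNTG, in genes such as CDH1, and the Twist proteins are basic helix-loop-helix factors that bind E-boxes as dimers with E proteins. Their best-known outcome is the cadherin switch, in which E-cadherin (CDH1) is lost and N-cadherin (CDH2) or OB-cadherin (CDH11) is gained, while vimentin (VIM) builds the intermediate filaments of mesenchymal cells. Granulosa cells are an unusual setting for this programme, because they form an epithelium-like layer in the follicle that is joined by N-cadherin and carries both keratins and vimentin.

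Each library held 17907057 to 18553350 counts, of which the 10 genes took 0.283 to 0.329%. Among the markers of granulosa cells, the transcription factors GATA4 and WT1 were present at means of 74.1 and 38.4 TPM (a transcript level scaled for gene length and library size) and AMH (anti-Müllerian hormone) at 13.7 TPM, whereas FOXL2, a factor that maintains granulosa identity, was at 0.633 TPM. CYP19A1, the aromatase that makes estradiol and a defining enzyme of the mature granulosa cell, had 0 counts in 31 libraries and 1 count in the other. The remaining granulosa markers were low: INHBA was at 3.83 TPM, STAR at 1.83, INHA at 1.58 and CYP11A1 at 0.928. NR5A1, AMHR2 and HSD3B2 were at 0.0944 TPM or less, and FSHR and LHCGR had no values. The 6 liver transcripts that served as markers of foreign RNA summed to 0 or 1 count per library in the control and 0.01 µM groups at 6 weeks, to between 72 and 174 counts in the other libraries, and to 919 counts in 1 of them, replicate 3 of the control at 12 weeks. Values without this library are given for the members and for the counts of related gene lists in the control's comparison of times, and for the members where it changed a sign with PFOS.

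On GRCh38, SNAI1 (gene ID 6615) lies on chromosome 20 from 49982980 to 49988886 and TWIST1 (7291) on chromosome 7 from 19113047 to 19117636. TWIST2 (117581) spans 238848085 to 238910534 and ZEB2 (9839) spans 144384081 to 144520119, both on chromosome 2. ZEB1 (6935) occupies 31318417 to 31529804 and VIM (7431) occupies 17228241 to 17237593 of chromosome 10. CDH1 (999) runs from 68737292 to 68835537 and CDH11 (1009) from 64943753 to 65123744, both on chromosome 16, and CDH2 (1000) runs from 27932879 to 28177130 on chromosome 18. The gene ID of SNAI2 is 6591. Values are sums over a whole gene, so isoforms and exons were not told apart.

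RefSeq promoter windows on GRCh38.p14 were at hand for 5 of the 10 genes (TWIST2, ZEB1, ZEB2, CDH2 and VIM), and the 250 bases upstream of each start were searched for CANNTG and for its form CACCTG, which reads CAGGTG on the other strand and is the one that Snail and ZEB factors favour. CANNTG reads the same on both strands, and every CACCTG or CAGGTG is also a CANNTG. Of all 35116 promoters of this length, 61.8% held a CANNTG and 17.5% held CACCTG or CAGGTG. The windows of ZEB1, ZEB2 and CDH2 are shown in full, since ZEB2 and CDH2 moved in opposite directions between the times while ZEB1 was not called. Each is printed 5′ to 3′ on the strand of its gene and ends at the base before the start, with each CANNTG in capitals. The ZEB1 window, upstream of the first of 7 starts (chr10:31318167-31318416, plus strand), held 2 of them, 1 being CAGGTG at position -57 from the start. The ZEB2 window (chr2:144520120-144520369, minus strand) held 1 CANNTG, at position -180, and the CDH2 window at its first start (chr18:28177131-28177380, minus strand) held 0.
ZEB1: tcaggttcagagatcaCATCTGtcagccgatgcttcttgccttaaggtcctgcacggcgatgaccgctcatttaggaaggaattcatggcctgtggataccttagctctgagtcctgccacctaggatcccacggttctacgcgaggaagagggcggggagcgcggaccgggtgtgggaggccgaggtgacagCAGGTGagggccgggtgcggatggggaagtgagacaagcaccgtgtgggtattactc
ZEB2: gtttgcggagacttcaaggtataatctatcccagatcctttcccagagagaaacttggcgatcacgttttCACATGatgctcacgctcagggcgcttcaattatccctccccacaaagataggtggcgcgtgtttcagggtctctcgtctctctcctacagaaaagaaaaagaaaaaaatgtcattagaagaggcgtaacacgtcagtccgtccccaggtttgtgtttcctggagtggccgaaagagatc
CDH2: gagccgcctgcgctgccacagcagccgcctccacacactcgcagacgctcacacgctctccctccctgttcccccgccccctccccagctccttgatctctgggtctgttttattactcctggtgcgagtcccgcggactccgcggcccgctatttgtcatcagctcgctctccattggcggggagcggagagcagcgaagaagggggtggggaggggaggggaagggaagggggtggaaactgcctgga
The windows of VIM and TWIST2 held 0 CANNTG. A match in these letters is a description of the sequence, and binding was not measured.

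The levels of the 10 genes spanned a wide range. VIM ranked 73 of the 18583 genes with a mean of 2069 TPM over the 32 libraries (range 1843 to 2209), and no other member came near it. CDH2 (mean 112 TPM, range 89.3 to 138) and SNAI1 (96.1 TPM, range 46.7 to 150) followed, with ranges that overlapped. Then came CDH11 (16.2 TPM, range 6.09 to 26.9) and ZEB2 (9.01 TPM, range 7.28 to 10.6), which overlapped each other but not SNAI1 above or ZEB1 below. The lower end was formed by ZEB1 (3.54 TPM), SNAI2 (2.72 TPM), TWIST1 (1.09 TPM) and CDH1 (0.649 TPM), each overlapping its neighbour in this order. TWIST2 stood last with 0 to 2 counts per library and 0 counts in 16 of the 32. A count of 0 allows up to 3 counts at this depth, for counting error alone, so that differences in TWIST2 were not detectable.

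Within each family the members differed in level. SNAI1 exceeded SNAI2 by a median ratio of 34.1 in TPM (range 26.1 to 53.7 over 32 libraries), ZEB2 exceeded ZEB1 by 2.54 (1.97 to 3.41), and CDH2 exceeded CDH1 by 181 (111 to 326). The cells were thus rich in the N-cadherin transcript and nearly without that of E-cadherin in every library, controls included: CDH1 had 18 to 61 counts per library against 4240 to 6073 for CDH2. At the same time the simple epithelial keratins KRT8 and KRT18 were above VIM in every library, at means of 3416 and 2613 TPM. KRT19 was about as abundant as VIM, at a mean of 2047 TPM. EPCAM, an epithelial surface gene, had 9 to 29 counts per library. In bulk RNA, fewer cells that express a gene and less RNA in each of them cannot be told apart.

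**Figure D1:**
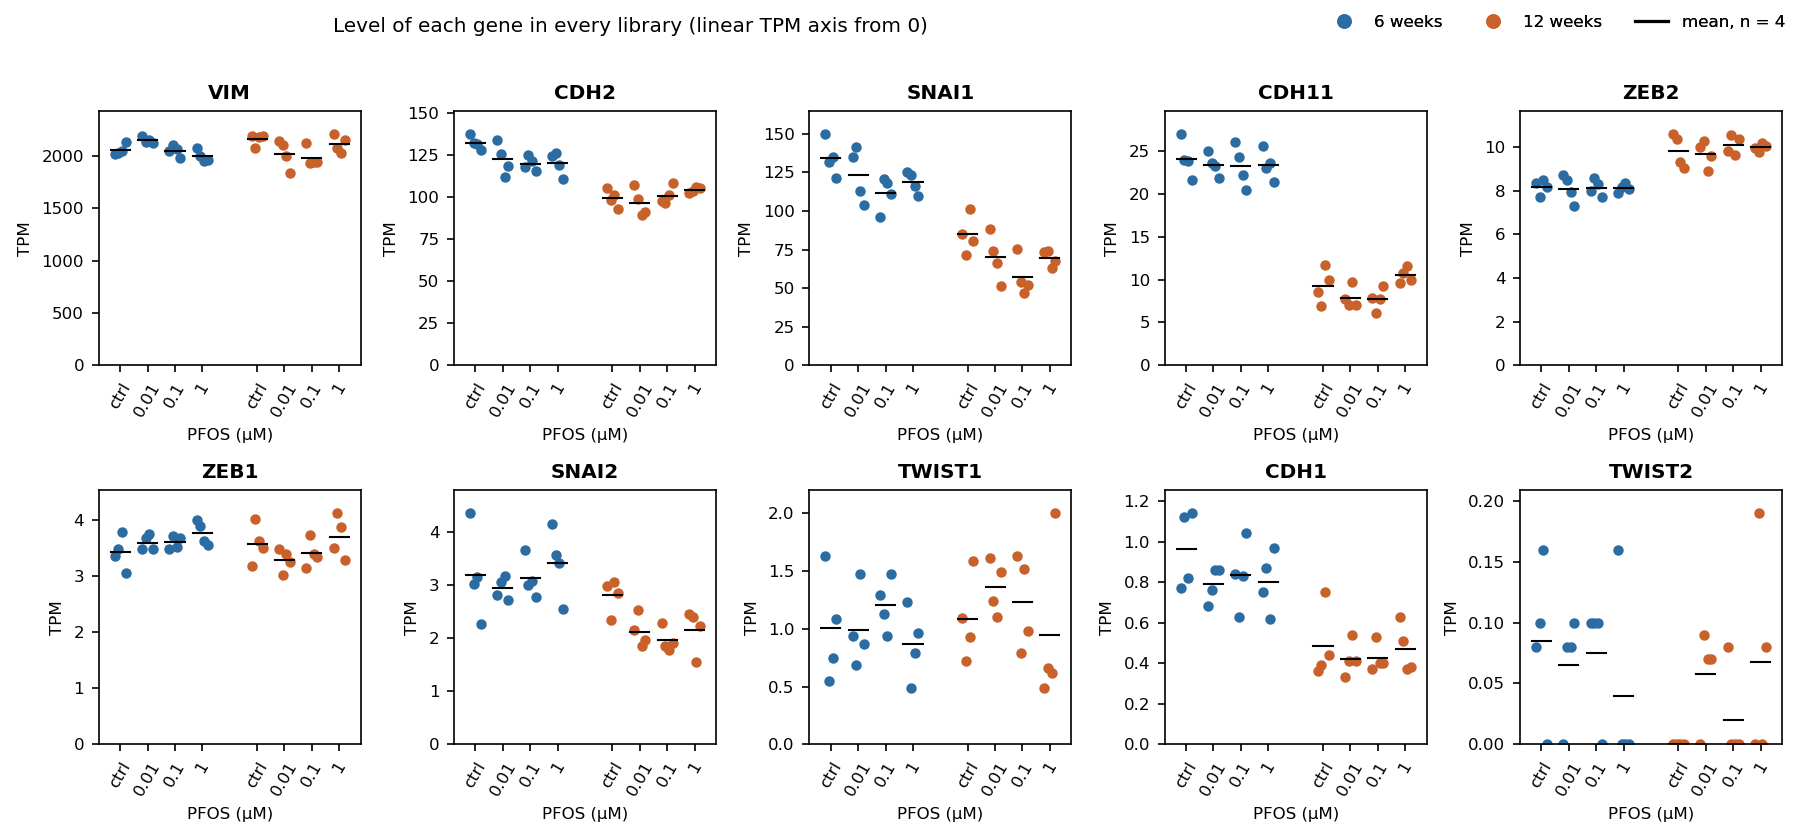
Level of each of the 10 genes in every library, in TPM on a linear axis from 0, ordered by mean level; points are libraries, bars are means of n = 4, blue is 6 weeks and orange 12 weeks, and the horizontal axis gives the PFOS concentration in µM (ctrl, vehicle). For CDH11 the 16 libraries at 12 weeks (6.09 to 11.7 TPM) all lie below the 16 at 6 weeks (20.4 to 26.9 TPM), whereas for ZEB2 they all lie above (8.88 to 10.6 against 7.28 to 8.70 TPM).

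The question for PFOS was whether any concentration moved these genes against the vehicle control of the same time. A gene was called when the adjusted p was at or under 0.05 in edgeR's quasi-likelihood test on the rounded expected counts, with the 16 libraries of a time in a single fit and Benjamini-Hochberg adjustment over all genes tested. TWIST2 fell under the filter on low counts and the other 9 members passed it. With 0.01 µM PFOS 0 of these 9 were called at 6 weeks, where 0.0% of 12836 genes were called, and 0 of 9 at 12 weeks, where 0.0% of 12742 genes were called. With 0.1 µM 0 of 9 were called at either time, against a background of 4.24% at 6 weeks and 1.07% at 12 weeks. With 1 µM 0 of 9 were called, against 0.28% and 0.22%. These shares are so small that few or no calls among 9 genes are what the background gives. The lowest adjusted p of the 54 tests was 0.0817.

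At 0.1 µM and 12 weeks the Snail factors and VIM lay lower than in the control without passing the test. SNAI1, a repressor of CDH1 and an early-acting factor of EMT, was at 85.3, 71.6, 101 and 80.7 TPM in the 4 control libraries and at 75.4, 54.0, 46.7 and 52.0 TPM with 0.1 µM PFOS. The groups overlapped only through replicate 1 of the exposed cultures, and the value was lower in 4 of 4 vials. The log2 fold change was -0.61 (SE 0.17), with an adjusted p of 0.114 in edgeR's test. SNAI1 did pass with DESeq2 (log2 fold change -0.60, adjusted p = 0.0336), with all 32 libraries in a single edgeR fit (-0.60, adjusted p = 0.0157) and without replicate 1 (-0.78, adjusted p = 0.0307), and it did not pass under the other 9 of 12 alternatives.

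SNAI2, also called Slug, the second repressor of the family, was at 2.98, 2.35, 3.07 and 2.85 TPM in the control and at 2.28, 1.86, 1.78 and 1.92 TPM with 0.1 µM PFOS at 12 weeks. These groups did not overlap, as was so for 8.33% of all genes in that comparison. They rest on 55 to 74 counts per library in the control and 41 to 53 with PFOS. The log2 fold change was -0.55 (SE 0.16, edgeR adjusted p = 0.101), and it was -0.39 (SE 0.16, adjusted p = 0.565) at 0.01 µM and -0.44 (SE 0.16, adjusted p = 0.392) at 1 µM. SNAI2 was called under 0 of 12 alternatives at each of the 3 concentrations. The 3 exposed groups were set against the same 4 control libraries, so their shared direction is no repeated observation.

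VIM was at 2191, 2081, 2182 and 2197 TPM in the 12-week control and at 2122, 1931, 1944 and 1945 TPM with 0.1 µM PFOS, groups that overlapped through 1 library on each side. Its log2 fold change was -0.16 (SE 0.06, edgeR adjusted p = 0.187), and it passed with DESeq2 (adjusted p = 0.0319) and with all 32 libraries in a single edgeR fit (adjusted p = 0.0258) only. CDH11 was at 8.50, 6.90, 11.7 and 9.96 TPM in the control and at 7.79, 6.09, 7.78 and 9.24 TPM with 0.1 µM, with a log2 fold change of -0.30 (SE 0.16, adjusted p = 0.392). The highest of these control values for SNAI1, SNAI2 and CDH11 came from replicate 3, the library with 919 liver transcript counts. Without that library the log2 fold changes at 0.1 µM were -0.50 for SNAI1 (adjusted p = 0.375), -0.50 for SNAI2 (adjusted p = 0.357), -0.14 for VIM (adjusted p = 0.494) and -0.16 for CDH11 (adjusted p = 0.776), and 0 of 9 members were called at each concentration.

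At 6 weeks the lowest adjusted p among the members belonged to CDH2 at 0.1 µM. Its levels were 138, 132, 132 and 128 TPM in the control and 118, 125, 122 and 116 TPM with 0.1 µM PFOS, without overlap (12.2% of all genes) and lower in 4 of 4 vials. The difference was small, with a log2 fold change of -0.12 (SE 0.04, edgeR adjusted p = 0.0817). It passed when the vial was fitted as a replicate block (-0.12, adjusted p = 0.0401) and when only the 8 libraries of both groups were fitted (-0.12, adjusted p = 0.0492).

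VIM at 0.01 µM and 6 weeks was the other case without overlap at that time. Its control libraries were at 2021, 2029, 2053 and 2134 TPM and its exposed libraries at 2189, 2134, 2151 and 2128 TPM. The groups overlap slightly in TPM and are apart in CPM (counts scaled to library size with TMM factors, not to gene length), as were 3.93% of all genes tested there. The log2 fold change was 0.07 (SE 0.03, edgeR adjusted p = 0.473).

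ZEB1, whose product represses CDH1 and microRNAs of the miR-200 family, reached a log2 fold change of 0.21 (SE 0.07, edgeR adjusted p = 0.161) at 1 µM and 6 weeks. Its control libraries were at 3.36, 3.48, 3.78 and 3.06 TPM and its 1 µM libraries at 3.99, 3.90, 3.62 and 3.55 TPM. The groups overlapped, and at 12 weeks the same comparison gave -0.02 (SE 0.09, adjusted p = 0.961). ZEB2, its paralog, was the steadiest member, with log2 fold changes between -0.04 and 0.04 over the 6 PFOS comparisons and an SE of 0.05 in each.

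CDH1, the E-cadherin gene, and TWIST1, a factor known from mesoderm formation, had too few counts for small changes to be seen. The CDH1 log2 fold changes with PFOS lay between -0.28 (SE 0.18) and -0.09 (SE 0.25). At 12 weeks this sign rested on replicate 3 of the control, the library rich in liver transcripts: CDH1 was at 0.75 TPM there and at 0.36, 0.39 and 0.44 TPM in the other 3 controls. Without that library the log2 fold changes at 12 weeks were 0.11, 0.06 and 0.20 at 0.01, 0.1 and 1 µM. The summed level of the 21 epithelial genes other than keratins was 261 CPM in that library, within the 258 to 289 CPM of the other 3 controls, and 2 of the 21 were highest in it. The 23 mesenchymal genes summed to 11529 CPM there, above the 10308 to 10743 CPM of the other 3, and 9 of the 23 were highest in it, as were SNAI1 and SNAI2. The part of liver RNA in its CDH1 value was not tested. TWIST1 was at 8 to 32 counts per library, and its log2 fold changes lay between -0.26 (SE 0.37) and 0.33 (SE 0.35).

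For TWIST2 an exact two-sided permutation test of the mean log2(CPM + 1), 4 libraries against 4, was run, for which 0.0286 is the smallest p. Its exact p-values were between 0.143 and 1.0 over the comparisons with PFOS and between the times.

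**Figure D2:**
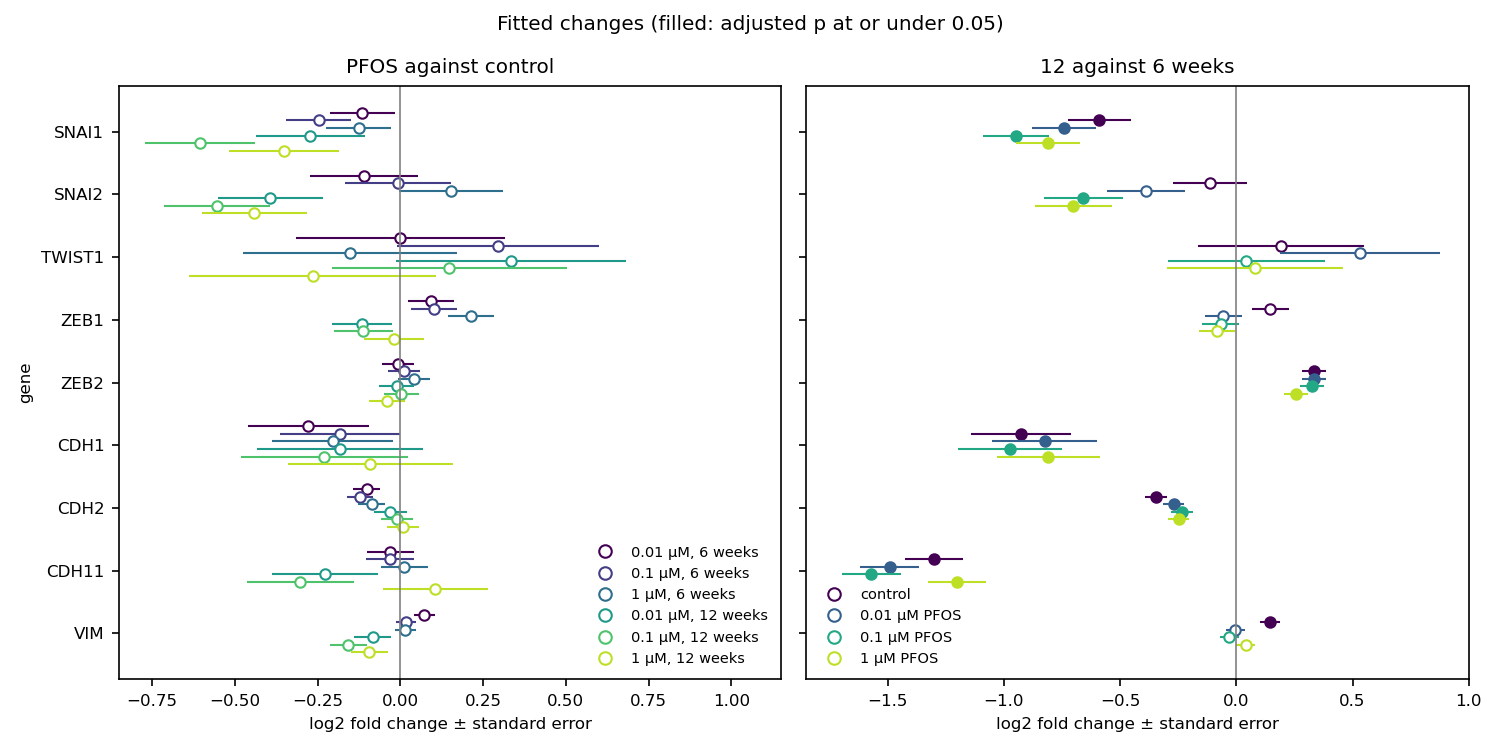
Fitted log2 fold change with its standard error (horizontal axis) of the 9 tested genes (vertical axis), with PFOS against control at left and 12 against 6 weeks at right, in 1 colour per comparison; filled points passed an adjusted p of 0.05. No point at left is filled, and at right CDH11, CDH1, SNAI1 and CDH2 are filled and lower, and ZEB2 is filled and higher, at all 4 exposures.

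Far larger were the differences between the times. The question was whether the same line, carried on under the same exposure, held these genes at the same level at 12 weeks as at 6 weeks, and each of the 4 exposures was tested separately in a fit of all 32 libraries. CDH11, SNAI1, CDH1 and CDH2 fell and ZEB2 rose at every exposure. Called members numbered 6 of 9 in the control, where 36.6% of 12988 genes were called, 5 of 9 at 0.01 µM (42.7%), 6 of 9 at 0.1 µM (40.3%) and 6 of 9 at 1 µM (30.1%). Without replicate 3 of the 12-week control the same 6 were called in the control: CDH1, CDH2, CDH11, SNAI1, ZEB2 and VIM. The log2 fold changes in the control were then -1.44 for CDH11 (edgeR adjusted p = 2.57e-09), -0.70 for SNAI1 (adjusted p = 0.000532), -0.36 for CDH2 (adjusted p = 6.63e-07), 0.35 for ZEB2 (adjusted p = 5.75e-06), 0.13 for VIM (adjusted p = 0.0193) and -0.16 for SNAI2 (adjusted p = 0.496). In CPM the groups of both times did not overlap for 5 of 9 members in the control (31.3% of all genes), 6 of 9 at 0.01 µM (33.2%), 6 of 9 at 0.1 µM (39.7%) and 6 of 9 at 1 µM (30.4%). The median log2 fold change of the 9 members was -0.11, -0.27, -0.23 and -0.25 in this order, and that of all genes was between 0.00 and 0.01. A large share of all genes thus differed between the times, and time, passage number and any batch of library preparation cannot be told apart.

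CDH11, the cadherin of mesenchymal and osteoblast-like cells, fell most. In the control it was at 26.9, 23.9, 23.8 and 21.5 TPM at 6 weeks and at 8.50, 6.90, 11.7 and 9.96 TPM at 12 weeks. With 0.01 µM PFOS it went from 24.9, 23.6, 23.2 and 21.8 TPM to 7.70, 7.01, 9.66 and 7.07 TPM, with 0.1 µM from 26.0, 24.2, 22.2 and 20.4 TPM to 7.79, 6.09, 7.78 and 9.24 TPM, and with 1 µM from 25.5, 23.0, 23.6 and 21.4 TPM to 9.62, 10.7, 11.6 and 9.98 TPM. No library at 12 weeks reached the lowest at 6 weeks, at any exposure. The log2 fold changes were -1.30, -1.49, -1.57 and -1.20 (SE 0.12 to 0.13), which is 2.30-fold to 2.97-fold lower, with edgeR adjusted p-values between 6.55e-10 and 6.19e-08. In the main fits CDH11 was the only member to change by at least 2-fold. In the control 2.69% of genes fell by that much and passed the test, with 3.01%, 3.42% and 2.73% at the rising concentrations. Under the alternatives CDH1 reached log2 fold changes as low as -1.28 in the control and -1.21 at 0.1 µM, also beyond 2-fold.

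SNAI1 fell at all 4 exposures as well. In the control it was at 150, 132, 135 and 121 TPM at 6 weeks and at 85.3, 71.6, 101 and 80.7 TPM at 12 weeks, and with 0.1 µM PFOS it went from 96.2, 121, 118 and 111 TPM to 75.4, 54.0, 46.7 and 52.0 TPM. These groups did not overlap, and SNAI1 was lower at 12 weeks in 16 of the 16 pairs of libraries with the same replicate number and exposure. The log2 fold changes were -0.59 in the control and -0.74, -0.95 and -0.81 at 0.01, 0.1 and 1 µM (SE 0.14 each), with edgeR adjusted p-values between 8.49e-06 and 0.00148.

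SNAI2 fell at 0.1 µM (log2 fold change -0.66, SE 0.17, edgeR adjusted p = 0.00213) and at 1 µM (-0.70, SE 0.16, adjusted p = 0.00132). At 0.01 µM it was at -0.39 (SE 0.17, adjusted p = 0.0588), a value that passed with the vial as replicate block (adjusted p = 0.0361) and with the 8 libraries of both groups alone (adjusted p = 0.0437). In the control it was at -0.11 (SE 0.16, adjusted p = 0.615), from 4.36, 3.02, 3.16 and 2.26 TPM to 2.98, 2.35, 3.07 and 2.85 TPM. The 6-week control spread widely, and leaving out its replicate 1 along with the same vial at 12 weeks turned the sign (0.05). That the time effect on SNAI2 differed between exposed and control cultures was not shown, as the tests of this difference reported further on did not pass.

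CDH1 fell at all 4 exposures, from a low level to a lower one. In the control it was at 0.77, 1.12, 0.82 and 1.14 TPM at 6 weeks and at 0.36, 0.39, 0.75 and 0.44 TPM at 12 weeks, which rests on 41 to 61 counts per library and then on 20 to 42. The log2 fold changes were -0.93, -0.83, -0.97 and -0.81 (SE 0.21 to 0.22), with edgeR adjusted p-values between 0.000695 and 0.00517, and CDH1 was lower in 16 of 16 pairs. Without replicate 3 of the 12-week control the value in the control was -1.22 (adjusted p = 5.46e-05). Without replicate 4 the call at 1 µM was lost (-0.60, adjusted p = 0.0998).

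CDH2, the main cadherin of these cells, fell by less but with little spread. Its control libraries went from 138, 132, 132 and 128 TPM to 105, 98.4, 101 and 92.8 TPM, and its log2 fold changes were -0.35, -0.27, -0.23 and -0.25 (SE 0.05 each, edgeR adjusted p between 2.89e-07 and 9.97e-05). All 16 libraries at 12 weeks lay below the lowest at 6 weeks. Because the 3 cadherins fell by unequal amounts, their proportions moved: the median ratio of CDH2 to CDH11 in TPM was 5.36 (range 4.52 to 5.94, n = 16) at 6 weeks and 12.1 (8.62 to 15.9, n = 16) at 12 weeks, without overlap. The ratio of CDH2 to CDH1 was 146 (111 to 198) and then 247 (135 to 326), with overlap.

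ZEB2 rose at every exposure. Its control libraries went from 8.35, 7.73, 8.49 and 8.19 TPM to 10.6, 10.4, 9.32 and 9.04 TPM, and the log2 fold changes were 0.33, 0.33, 0.33 and 0.26 (SE 0.05 each, edgeR adjusted p between 2.91e-06 and 0.000234). It was higher in 16 of 16 pairs, in the time over which SNAI1 fell. ZEB1 passed at 0 of the 4 exposures (log2 fold changes -0.08 to 0.15, SE 0.08), and the median ratio of ZEB2 to ZEB1 was 2.28 at 6 weeks and 2.84 at 12 weeks.

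VIM rose in the control in the fit (log2 fold change 0.15, SE 0.04, edgeR adjusted p = 0.00593). In TPM it went from 2021, 2029, 2053 and 2134 to 2191, 2081, 2182 and 2197, groups that overlapped, with means of 2059 and 2163. At the PFOS concentrations it did not pass, with log2 fold changes between -0.03 and 0.04 (SE 0.04). The mean TPM went from 2150 to 2024 at 0.01 µM, from 2052 to 1985 at 0.1 µM and from 2000 to 2118 at 1 µM. A rise in the control alone was thus seen in the fit and not in TPM, where 1 µM rose as well. TWIST1 passed at 0 of the 4 exposures, with log2 fold changes between 0.04 and 0.53 and SEs between 0.34 and 0.38, so that even a change as large as that of SNAI1 could have been missed.

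**Figure D3:**
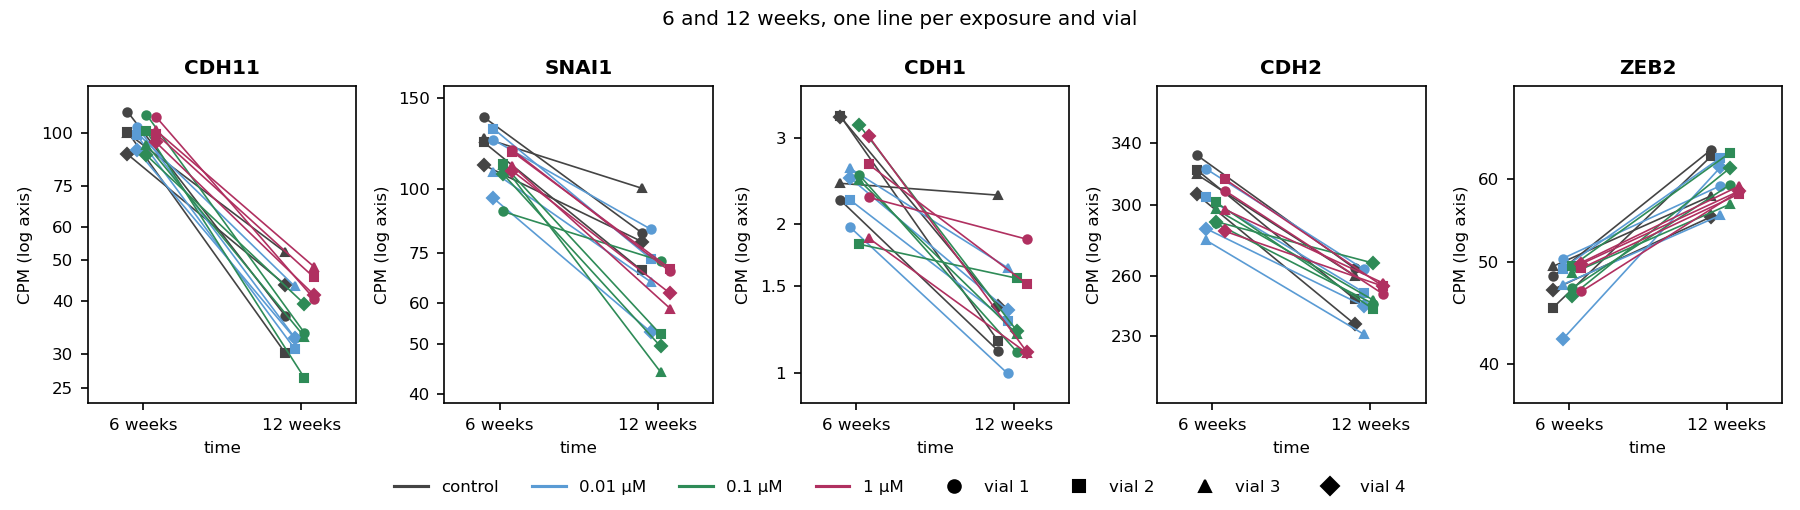
Counts scaled to library size with TMM factors (CPM, log axis) of 5 genes at 6 and 12 weeks, with 1 line for each exposure (colour) and vial (marker). For CDH11, SNAI1, CDH1 and CDH2 all 16 lines fall and for ZEB2 all 16 rise; the flattest CDH1 line belongs to vial 3 of the control, whose 12-week library held 919 liver transcript counts.

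Whether PFOS altered the change between the times was tested as an interaction. Of the 9 members 0 were called at 0.01 µM (background 0.0%), 0 at 0.1 µM (0.208%) and 0 at 1 µM (0.123%), and 0 at each concentration without replicate 3 of the 12-week control. The lowest adjusted p was that of VIM at 0.1 µM, where the effect of PFOS differed between 12 and 6 weeks by -0.17 on the log2 scale (SE 0.06, edgeR adjusted p = 0.147), a value called by DESeq2 alone (-0.18, adjusted p = 0.0331). For SNAI2 the difference was -0.55 at 0.1 µM (SE 0.23, adjusted p = 0.263) and -0.59 at 1 µM (SE 0.23, adjusted p = 0.303).

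Markers of other cell types moved between the times as well, and whether they came from other cells or from the line itself was not tested. The liver transcripts summed to 0 or 1 count at 6 weeks and to 72 or more at 12 weeks in the control and at 0.01 µM. With 0.1 and 1 µM they summed to 88 to 141 counts at 6 weeks and 92 to 174 at 12 weeks. At 6 weeks AHSG, ALB, AFP and APOB were called higher than in the control at both of these concentrations. ALB had log2 fold changes of 6.81 and 6.67 (edgeR adjusted p = 3.05e-09 and 7.86e-09). The same genes were called higher at 12 than at 6 weeks in the control and at 0.01 µM. Whether PFOS or RNA from elsewhere gave these counts was not tested. The 5 endothelial markers summed to 218 to 311 counts at 6 weeks and 93 to 189 at 12 weeks, with PECAM1, a defining endothelial gene, at 0.32 TPM at most. The 5 leukocyte markers summed to 496 to 664 counts at 6 weeks and 302 to 510 at 12 weeks, with CD3E at 0 in every library. CD68 (mean 21.4 TPM) and CD14 (7.67 TPM), genes of macrophages and monocytes, were detected in every library, and CD14 fell at all 4 exposures (log2 fold change -0.88, SE 0.18, edgeR adjusted p = 0.000202 in the control). Markers of theca cells summed to 5 counts at most. The 4 oocyte markers summed to 326 to 530 counts, nearly all from ZP3 (mean 28.4 TPM), which was higher at 12 weeks in the control (log2 fold change 0.24, SE 0.08, adjusted p = 0.0127). GDF9 was also detected in every library, at 2 to 9 counts, while BMP15 and DDX4, defining genes of the oocyte and germ line, were at 0. The part of the liver, endothelial, leukocyte and oocyte markers in the time differences was not tested. Granulosa markers moved too: of 8 tested, 2 fell and 1 rose in the control, where 36.6% of all genes were called. With PFOS, 4 fell and 0 rose at 0.01 µM (42.7%), 3 and 1 at 0.1 µM (40.3%) and 3 and 2 at 1 µM (30.1%). CYP11A1 fell at all 4 exposures (log2 fold change -2.03, SE 0.38, edgeR adjusted p = 7.27e-05 in the control).

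The counts of called genes in the 6 lists of related genes that follow stand beside 36.6% of all genes called between the times in the control and 42.7%, 40.3% and 30.1% at 0.01, 0.1 and 1 µM. Without replicate 3 of the 12-week control, the numbers that rose and fell in the control were 3 and 0 of 6 catenins and adaptors, 0 and 2 of 5 other cadherins, 4 and 2 of 12 partners, 3 and 2 of 10 genes of Snail turnover, 5 and 3 of 18 epithelial genes, and 2 and 9 of 22 mesenchymal genes. Values of single list genes include that library.

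The catenins, which tie cadherins to actin, were abundant. CTNNA1 had a mean of 216 TPM, CTNNB1 (beta-catenin) 119 TPM, CTNND1 66.0 TPM and JUP (plakoglobin) 55.5 TPM, and the adaptor AFDN (afadin) 56.1 TPM. Of the 6 genes in this list, 3 rose and 0 fell in the control between the times, and 2 rose and 0 fell at each PFOS concentration. CTNNB1 rose by 0.10 to 0.18 on the log2 scale and AFDN by 0.18 to 0.41 at the 4 exposures (highest edgeR adjusted p 0.0375 and 0.0477). In the control CTNNB1 was called under 5 of 11 alternatives and AFDN under 7 of 11, and at 1 µM each under 6 of 10. The list's median log2 fold change lay between -0.0033 and 0.052 over the 4 exposures. The N-cadherin transcript fell over the same weeks.

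Of the 5 other cadherins that passed the filter, 3 fell in the control: CDH6 (log2 fold change -1.87, SE 0.51, edgeR adjusted p = 0.00521), CDH13 (-0.35, SE 0.08, adjusted p = 0.00122) and CDH24 (-0.19, SE 0.07, adjusted p = 0.0347, called under 7 of 11 alternatives). The median of the 5 was -0.33 in the control and between -0.20 and -0.03 with PFOS. CDH24 rose instead at 0.1 µM and 1 µM (0.22 each, SE 0.07). CDH6 rests on few counts, from 6 per library upwards. Against the control of the same time, CDH24 was higher with 0.1 µM PFOS at 12 weeks (log2 fold change 0.35, SE 0.08, adjusted p = 0.0351, called under 8 of 12 alternatives) and CDH13 lower with 0.1 µM at 6 weeks (-0.15, SE 0.04, adjusted p = 0.0379, called under 6 of 11).

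Among 12 tested partners and further factors of EMT, 4 rose and 2 fell in the control (8, 7 and 6 were called at 0.01, 0.1 and 1 µM), with a median log2 fold change between 0.0075 and 0.092. LOXL2, an enzyme of the lysyl oxidase family that interacts with SNAI1, fell from a median of 232 TPM to 152 TPM, with log2 fold changes of -0.55, -0.68, -0.60 and -0.44 (highest edgeR adjusted p 2.41e-07). FOXC2, a forkhead factor of mesenchyme, fell in the control (-0.86, SE 0.21, adjusted p = 0.00163) and at 0.01 and 0.1 µM. RCOR1, which carries the demethylase KDM1A in a corepressor complex, rose (0.23, SE 0.04, adjusted p = 1.24e-05 in the control), as did AJUBA, a LIM protein and corepressor of SNAI1 (0.26 to 0.57 over the 4 exposures), and TCF12, an E protein that dimerizes with Twist factors (0.15 to 0.29). SNAI3 was at 0 counts in 18 libraries.

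SNAI1 protein is short-lived, and its level depends on kinases and ubiquitin ligases, which RNA does not show. Of 10 tested genes of Snail turnover, 3 rose and 2 fell in the control, and 6, 6 and 5 were called at 0.01, 0.1 and 1 µM, with a median log2 fold change between 0.02 and 0.10. FBXL14, a ligase subunit that marks SNAI1 for degradation, rose at all 4 exposures by 0.41 to 0.68 on the log2 scale (highest edgeR adjusted p 0.00773). LATS2, a Hippo pathway kinase that stabilizes SNAI1 in the nucleus, rose by 0.24 to 0.46 (highest adjusted p 0.000269). PAK1, a kinase that keeps SNAI1 in the nucleus, fell by 0.33 to 0.46 (highest adjusted p 3.86e-05). Protein was not measured.

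Among the mesenchymal genes more fell than rose. Of 22 tested, 8 fell and 2 rose in the control, and 10, 11 and 6 fell with 2 rising at 0.01, 0.1 and 1 µM. Their median log2 fold change was -0.21, -0.18, -0.17 and -0.08. FN1 (fibronectin) fell from a median of 435 TPM at 6 weeks to 213 TPM at 12 weeks (log2 fold change -1.23, SE 0.08, edgeR adjusted p = 2.79e-12 in the control). Its receptor subunit ITGA5 (-0.61, SE 0.06, adjusted p = 7.15e-10) and the collagen crosslinking enzyme LOX (-0.61, SE 0.08, adjusted p = 5.08e-07) fell along with it, and at every PFOS concentration. The 2 that rose were the intermediate filament genes NES and DES, DES by 0.40 to 0.64.

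The epithelial genes showed no common direction. Of 18 tested, 5 rose and 3 fell in the control, and 4 rose with 5, 4 and 4 falling at 0.01, 0.1 and 1 µM. Their median log2 fold change lay between -0.09 and 0.03. LLGL2, a polarity protein, rose at all 4 exposures (log2 fold changes 0.26 to 0.34), as did ESRP2, an epithelial splicing factor (0.29 to 0.65). MUC1, an apical mucin, fell by 0.30 to 0.55 and DSP (desmoplakin), of the desmosomes, by 0.25 to 0.43. With PFOS, members of these 6 lists were called at 0.1 µM and at neither of the other concentrations: beside CDH13 and CDH24 they included KRT18 (log2 fold change -0.12, SE 0.03, adjusted p = 0.0405) and TAGLN, an actin-binding protein of smooth muscle (-0.54, SE 0.14, adjusted p = 0.0474), both at 6 weeks. These were called under 6 and 4 of 11 alternatives. Of all genes, 4.24% were called at 0.1 µM and 6 weeks and 1.07% at 12 weeks, against at most 0.28% at the other concentrations. Few calls in the lists, at 0.1 µM alone, are what this background gives.

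**Figure D4:**
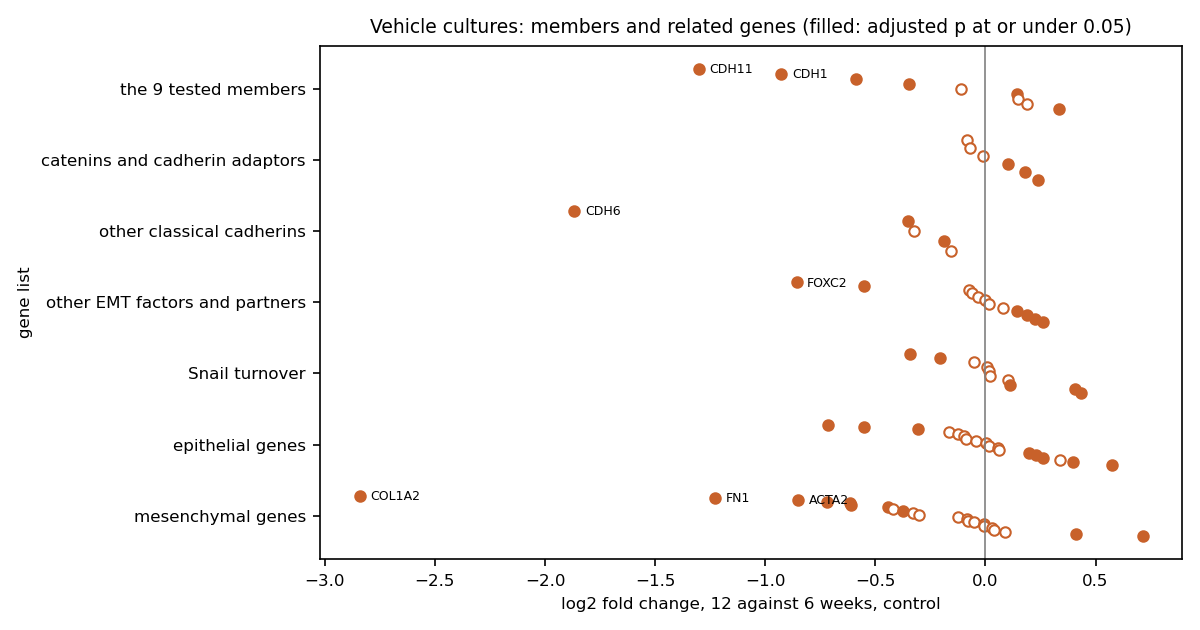
Log2 fold change at 12 against 6 weeks in the vehicle control (horizontal axis) for the 9 tested members and 6 lists of related genes (vertical axis), 1 point per gene, filled where the adjusted p was at or under 0.05. Most filled mesenchymal genes lie below 0 (8 of 10, FN1 at -1.23), while the filled epithelial genes lie on both sides (5 higher, 3 lower).

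Across libraries, some members moved together. The genes most like each member were sought among 12614 genes by Pearson's r of log2(CPM + 1) over all 32 libraries, points that share vials, media and the split by time, so that r is given as a description. CDH11 was most like SHC3 (r = 0.98, and 0.71 and 0.82 within the 16 libraries of 6 and of 12 weeks) and TNFRSF21 (r = 0.98), and CDH2 most like JAK1 (r = 0.96) and PAM (r = 0.96). For ZEB2 they were PCF11 and CEBPG (r = 0.93 each, within times 0.47 and 0.52 for PCF11 and 0.27 and 0.70 for CEBPG). For CDH1 they were DIPK1A (r = 0.90, within times 0.43 and 0.72) and SC5D (r = 0.87, within times 0.37 and 0.67).

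SNAI2 was most like PHLDA1 and PDP1 (r = 0.85 each), and VIM most like ATF3 (r = 0.77) and DUSP10 (r = 0.73). Within the libraries of 6 weeks r was only 0.13 for VIM and ATF3 and 0.30 for VIM and DUSP10. Within those of 12 weeks it was 0.88 and 0.89. For TWIST1 the closest were PRH1 (r = 0.69) and MAPK3 (r = 0.64) and for ZEB1 CSTF1 (r = 0.63) and HMGA2 (r = 0.57). These were picked as the highest among 12614 genes, which by itself favours a high r, and TWIST1 had 8 to 32 counts per library. Whether they exceed what such a choice gives was not tested. TWIST2 was too low to be included.

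Among the members themselves, SNAI1, SNAI2 and VIM varied together within the 12-week libraries but not within those of 6 weeks. Over the 16 libraries at 12 weeks r was 0.92 for SNAI1 and VIM, 0.89 for SNAI2 and VIM and 0.80 for SNAI1 and SNAI2, against -0.14, -0.29 and 0.24 over the 16 at 6 weeks. The correlation of CDH11 with CDH2 was 0.89 over 32 libraries and 0.42 and 0.14 within 6 and 12 weeks, and that of SNAI1 with CDH1 was 0.75, -0.19 and 0.28, so that these rest mostly on the difference between the times.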

How the data were processed

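Transcripts were measured in 32 libraries of HGrC1 cells (8 groups, n = 4). Per the submitters' processing notes and the study's methods, the authors made stranded libraries of poly(A) RNA for DNBSEQ sequencing, aligned the filtered reads with HISAT2 2.0.4 and Bowtie2 2.2.5 to GRCh38.p14, and deposited expected counts and TPM values per gene from RSEM 1.2.8. The strand setting of the counting is not given in the sources used here, so reads of a gene and of an antisense partner may not have been separated. The deposited expected counts (92.3% whole within a tolerance of 1e-06) were rounded to whole numbers for tests, and the TPM values that the authors deposited served to compare levels between genes. The deposited FPKM values and normalized counts were not used.

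Tests used edgeR 4.0.16 (TMM, filterByExpr, robust quasi-likelihood fit, two-sided, Benjamini-Hochberg over all genes) with limma 3.58.1 in R 4.3.3. PFOS was compared with the control in fits of the 16 libraries of a time, and times and interactions were fitted over all 32 libraries. Folds come from the fitted log2 changes. The genes named were the 10 members, the genes of the fixed lists that passed a test (at most 4 with the lowest adjusted p per list and comparison), the most abundant catenins and epithelial genes, markers, and for each member the 2 genes with the highest r, where a mean of 10 counts or more was required. Some of the genes that this rule names are not reported here. The lists and members were chosen with earlier results of these data known. Gene names and positions come from RefSeq, whose coordinates equal those in the files for 9 of the 10 members. The TWIST2 row of the files also names a patch scaffold. Replicate pairs within groups (48) were compared: 0 were identical, and chi-square divided by its degrees of freedom was 2.35 to 16.9, so all libraries were counted separately. Scripts were tested on simulated counts. Intervals and floors for 0 counts cover counting error only.

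Per the study's methods each vial was divided into all exposures, and the labels give replicate numbers without naming vials. Libraries of the same number were taken to share a vial, and counts of vials or pairs rest on this reading. The mean correlation of the deviations of same-numbered libraries was 0.065 to 0.152 over 6 pairs of groups at 6 weeks, -0.21 to 0.15 over 6 pairs at 12 weeks and 0.032 to 0.118 over 4 pairs between the times. A replicate block for the vial was fitted as an alternative. Others were DESeq2 1.42.0, its size factors within edgeR, no filter on low counts, at least 10 counts in every library, each replicate left out, all 32 libraries or only the 8 of 2 groups in a fit, and the 12-week control without replicate 3. Summaries used Python 3.11.15, numpy 2.4.6, pandas 2.3.3, scipy 1.17.1 and matplotlib 3.10.9. Genes with 0 counts in a library were assigned a limit of 3 counts.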

Additional observations from a re-analysis of the deposited data

Results flagged for a closer look

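In 79 groups of 4 libraries with differing values, the highest or lowest TPM value of each member was compared with the other 3, and in 6 of them the gap to the nearest value took more of the group's whole range than Dixon's test allows at the 95% level. For continuous values chance flags about 1 in 20 groups, so about that many are not unusual. That rate does not hold for TWIST2, where a library apart from 3 equal ones takes the whole range and is always flagged. TWIST1 was at 2.00 TPM in replicate 4 of the 1 µM group at 12 weeks, against 0.49 to 0.66 TPM in the other 3. VIM was at 2081 TPM in replicate 2 of the 12-week control, below the 2182 to 2197 TPM of the others, and at 2122 TPM in replicate 1 of the 0.1 µM group at 12 weeks, above their 1931 to 1945 TPM. The other 3 belong to TWIST2, whose values stand for 0 to 2 counts: 0.0 TPM in replicate 4 of the 0.1 µM group at 6 weeks, 0.16 TPM in replicate 1 of the 1 µM group at 6 weeks and 0.08 TPM in replicate 1 of the 0.1 µM group at 12 weeks.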

How the results depend on the processing

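Over the alternatives, 1223 values of single members kept their side of the threshold and their direction (or, where uncalled, moved by less than 1 standard error), 10 passed where the reported value had not, 1 no longer passed and 13 changed sign. The number of members called was 0 at 0.1 µM and 6 weeks and became 1 (CDH2) with the replicate block and 1 with only the 8 libraries of both groups. At 0.1 µM and 12 weeks it became 2 (SNAI1 and VIM) with DESeq2 and 2 with all 32 libraries in a fit, and 0 to 1 when each replicate was left out. For the difference between the times at 0.1 µM it became 1 (VIM) with DESeq2. The shares of all genes called under these alternatives are not given here, so these counts stand without a background. The replicate block changed 1 other call, SNAI2 between the times at 0.01 µM (adjusted p = 0.0361), and the numbers called between the times stayed within 1.5 times the reported ones under every alternative.

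All 13 changes of sign arose when a library or vial was left out, and none of these values was called. Leaving out each in turn, log2 fold changes against the control at 6 weeks ran from -0.21 to 0.095 for SNAI2 and from -0.38 to 0.36 for TWIST1 at 0.01 µM, both turned without replicate 1, and from -0.28 to 0.028 for CDH1 at 0.1 µM, turned without replicate 2. At 12 weeks they ran from -0.050 to 0.022 for CDH2 at 0.01 µM, turned without replicate 3. For CDH1 at 12 weeks they ran from -0.27 to 0.11 at 0.01 µM, from -0.44 to 0.088 at 0.1 µM and from -0.38 to 0.31 at 1 µM, and without replicate 3 of the control alone, the library rich in liver transcripts, they were 0.11, 0.062 and 0.20. Between the times they ran from -0.26 to 0.051 for SNAI2 in the control, turned without replicate 1, and from -0.51 to 0.49 for TWIST1 at 1 µM, turned without replicate 4. The difference between the times ran from -0.10 to 0.060 for ZEB2 at 0.01 µM, turned without replicate 4, and from -0.48 to 0.33 for CDH1 at 0.1 µM, turned without replicate 3. The cause was not tested. Depth limits CDH1, SNAI2 and TWIST1, at 8 to 98 counts per library, and TWIST2 did not enter the fits.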
